A study of Homo sapiens with 12 samples.

Results

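The microRNAs described here are those with a registry number of 1000 or more and below 3000, called mid-numbered below. They were taken from both comparison tables of a small-RNA sequencing study in K562, a human erythroleukaemia line, by the number in the name alone, with any letter or arm suffix. Strands of miR-1185, miR-1193, miR-1197, miR-1246, miR-1283, miR-1290, miR-1307 and miR-1323 were left out. This gave 68 mature strands with 55 distinct numbers, out of 952 strands in the study, of which 495 were numbered below 1000 or were let-7 and 384 were numbered 3000 upward. In total 54 of the 68 strands were tested in both comparisons, 5 only in the first and 9 only in the second.

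The study sequenced 12 libraries, biological triplicates of 4 lines, all grown in RPMI with fetal serum. In the first comparison the line sgCYRANO, which received a guide targeting the lncRNA CYRANO, is compared with sgNT, whose guide targets nothing. In the second a ZSWIM8-/- line (ZSWIM8 KO, below also the knockout) is compared with wild-type K562 (WT), and according to the labels neither line received a guide. The sources used here do not say whether a line was grown from 1 clone. The comparisons bear on target-directed microRNA decay, in which a highly complementary target RNA leads to destruction of the microRNA bound to it.

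A microRNA is cut from a hairpin precursor, and either arm (5p or 3p) can be loaded into an Argonaute protein, where bases 2 to 8, the seed, do most of the target recognition. ZSWIM8 is the substrate receptor of a ubiquitin ligase that marks Argonaute for destruction during target-directed decay, and CYRANO is the target that triggers decay of miR-7. Numbers are given to microRNAs in the order of their discovery, so falling in this range of numbers defines no shared sequence or function. Many such hairpins were found by deep sequencing, and they include mirtrons, which are short introns that fold into hairpins after splicing and bypass the Drosha step, and hairpins embedded in small nucleolar RNAs or in repeats.

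The strands that passed the test are shown first, because the main result turns on them. The sequences are from RefSeq (table of build GRCh38.p14), in which 60 of the 68 strands were found, and capitals mark the seed.
miR-1301-3p: uUGCAGCUgccugggagugacuuc
miR-1180-3p: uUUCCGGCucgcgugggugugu
miR-1908-5p: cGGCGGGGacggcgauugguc
miR-1908-3p: cCGGCCGCcggcuccgccccg
miR-1263: aUGGUACCcuggcauacugagu
The other strand that passed was miR-1296-5p. The 5 seeds printed above differ from one another, and none of them was shared with another measured strand that had a sequence. The miR-1908-3p strand is 95.2% G and C, more than any other of the 60 strands.

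In GRCh38 the 6 strands come from 5 hairpins, 4 of which lie inside protein-coding genes on the same strand (GENCODE v29). MIR1301 (chr2:25328640-25328721, minus strand) lies in an intron of DNMT3A, a de novo DNA methyltransferase. MIR1296 (chr10:63372957-63373048, minus strand) lies in an intron of JMJD1C, a jumonji-domain protein. MIR1180 (chr17:19344506-19344574, minus strand) lies in an intron of B9D1, a protein of the ciliary transition zone. MIR1908 (chr11:61815161-61815240, minus strand) lies in FADS1, a fatty acid desaturase, and overlaps an exon in 2 of the 21 transcripts of that gene. MIR1263 (chr3:164171471-164171556, minus strand) lies in no annotated gene. None of the 5 hairpins had another hairpin of the RefSeq table within 10 kb.

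Levels are given as reads per 1000000 (CPM), as means of 3 libraries worked out from the deposited columns, and each ± gives the standard error that the deposited p-value implies for that change. The library totals were 1550000 to 2300000 reads in sgNT, 1670000 to 1850000 in sgCYRANO, 861000 to 1850000 in WT and 2090000 to 2490000 in ZSWIM8 KO. A group at 0 therefore allows up to 0.546, 0.567, 0.788 and 0.425 CPM in that order (3 reads over the group, counting error only). The erythroid markers miR-451a, miR-144-3p, miR-486-5p and miR-210-3p were all listed and summed to between 12898 and 15516 CPM in the 4 groups, most of it miR-486-5p. Within that sum miR-451a stood at 574.5 (WT) and 956.2 CPM (knockout), miR-144-3p at 119.4 and 239.1 CPM, and miR-486-5p at 14448 and 13386 CPM. Of the markers of other cells, the lymphoid list summed to between 3277 and 3679 CPM, nearly all of it the 2 arms of miR-142. Of the other lymphoid markers miR-150-5p was listed in neither comparison. miR-155-5p stood at 0.899 CPM in sgNT and 0.180 CPM in sgCYRANO and was not listed in the ZSWIM8 comparison. The myeloid miR-223-3p stood at 844.2 to 1039 CPM and the epithelial list at 85.8 to 115.6 CPM. Of the muscle list only miR-1-3p was listed, between 0.748 and 1.31 CPM, and miR-133a-3p and miR-206 were not. The liver marker miR-122-5p lay between 0.954 and 2.08 CPM, and the neuronal miR-124-3p was not listed in either table. The part of these markers in the results was not tested. The direction of both comparisons was taken from the order of the groups' names, and miR-7-5p was higher in both on that reading, from 6102 to 34883 CPM with the CYRANO guide and from 4616 to 23492 CPM without ZSWIM8.

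The mid-numbered strands were scarce. Together they held 0.171% (sgNT), 0.177% (sgCYRANO), 0.183% (WT) and 0.196% (ZSWIM8 KO) of all CPM. The median strand had a mean of 4.36 CPM in the CYRANO table and 3.94 CPM in the ZSWIM8 table, against 14.4 and 14.9 CPM for strands numbered below 1000 and 1.17 and 1.06 CPM for those numbered 3000 upward. Of the mid-numbered strands 5 reached 100 CPM and 20 reached 10 CPM in each of the tables, and 15 and 17 lay under 1 CPM.

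A single strand, miR-1180-3p, made up 22.8% of their summed CPM in sgNT and 32.2% in ZSWIM8 KO. It was the most abundant in all 4 groups, followed by miR-1273h-3p and then miR-1278. The 5 most abundant strands of each group held 60.04% to 63.98% of the sum. The order below the leading 3 differed in the knockout: miR-1301-3p stood at place 16 in WT and at place 7 in ZSWIM8 KO, and miR-1908-5p at place 4 and at place 8.

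**Figure D1:**
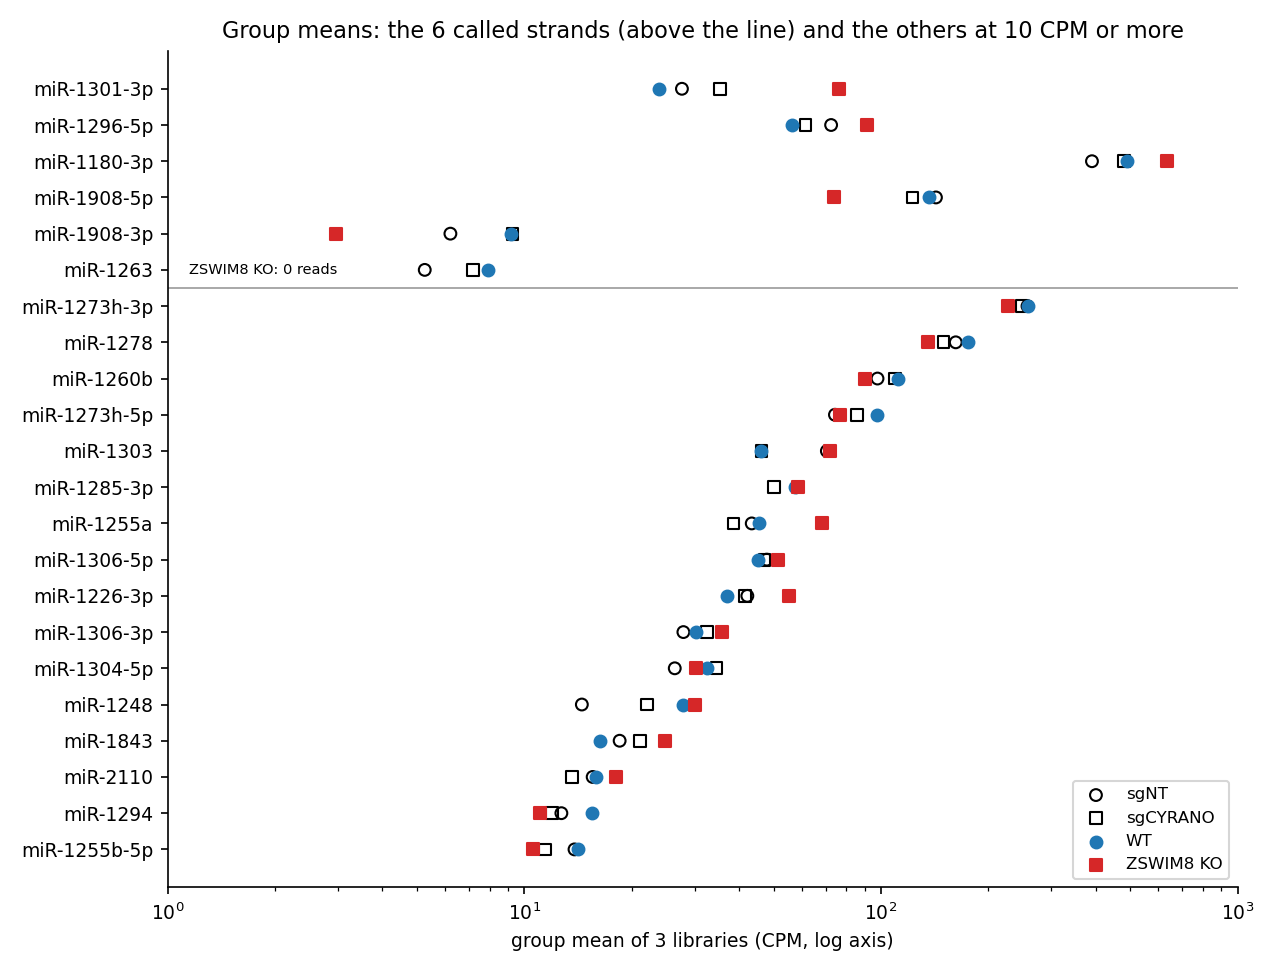
Group means of 3 libraries in CPM (log axis) for the 6 strands past the test in ZSWIM8 KO against WT, above the line, and for the others at 10 CPM or more; circles are sgNT (open) and WT (filled), squares sgCYRANO (open) and ZSWIM8 KO (filled). The ZSWIM8 KO square stands apart from the 3 other groups for miR-1301-3p at 76.2 CPM and for miR-1908-5p at 73.9 CPM, and miR-1263 had 0 reads there.

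Between ZSWIM8 KO and WT 6 of the 63 strands tested passed, which is 9.52%, beside 9.91% of all 868 strands in that table at the same threshold (deposited adjusted p under 0.05, edgeR's quasi-likelihood test with Benjamini-Hochberg adjustment). Of these, miR-1301-3p, miR-1296-5p and miR-1180-3p rose, beside 4.72% of all strands called higher. The strands miR-1263, miR-1908-5p and miR-1908-3p fell, beside 5.18% called lower. At 10 CPM or more the counts were 4 of 20 strands, beside 23% of all strands in that range. The median log2 fold change of the 63 strands was 0.01, against 0.08 over all strands. Thus the share of changed strands was near the background of the table, both overall and at 10 CPM or more.

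miR-1301-3p had the largest rise among the called strands. It stood at 23.8 CPM in WT and 76.2 CPM in the knockout, 3.20 times the WT level. The authors' deposited table gives it a log2 fold change of 1.67 ± 0.28 (95% interval 1.13 to 2.22, adjusted p 1.33e-07). In the other pair of groups it stood at 27.7 CPM in sgNT and 35.3 CPM in sgCYRANO, so that 3 groups lay between 23.8 and 35.3 CPM and only the knockout lay above. Levels set across the 2 tables come from separately scaled fits and are given side by side only.

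miR-1263 went from 7.89 CPM in WT to no reads in any of the 3 knockout libraries. The group totals are whole numbers of reads, and the WT mean stands for 33 reads, at least 20 of them in the deepest of the 3 WT libraries and at least 4 in each of the other two. The WT mean was 18.6 times the limit of 3 reads over the knockout group, leaving out the counting error of the 33 WT reads. The adjusted p was 4.9e-07 in the authors' deposited table, whose fitted log2 fold change of -6.00 depends on the prior count and is no bound. The same strand was present in both guide-treated groups, at 5.26 CPM in sgNT and 7.18 CPM in sgCYRANO. Its error in the ZSWIM8 fit was 1.71 times that of strands of like abundance. That error was worked out from the fitted change of -6.00, so the ratio also depends on the prior count.

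Other microRNAs on chromosome 3 were looked at on both sides of MIR1263. Only measured strands found in RefSeq had a position, and the others were not considered. The nearest strands with a position come from the hairpins of miR-15b and miR-16-2, 3.77 Mb away. Of these miR-15b-5p stood at 287.4 CPM in WT and 304.9 CPM in the knockout, miR-15b-3p at 270.6 and 265.7 CPM, and miR-16-2-3p at 1099 and 734.3 CPM (log2 fold change -0.58 ± 0.13, adjusted p 1.0e-04 in the authors' deposited table). On the other side the nearest with a position was miR-4448, 19.7 Mb away, at 2.01 CPM in WT and 1.49 CPM in the knockout. Beyond it miR-1224-5p, 20.1 Mb away, stood at 0.608 CPM in WT and at 0 in the knockout, and miR-1248, 22.6 Mb away, at 27.8 and 30.1 CPM. Further out miR-28-3p, 24.5 Mb away, stood at 2.23 and 2.75 CPM. The next strand, miR-944 at 25.7 Mb, fell from 12.7 CPM in WT to 2.57 CPM in the knockout (log2 fold change -2.25 ± 0.51, adjusted p 0.00023 in the authors' deposited table). Whether the MIR1263 locus or other parts of chromosome 3 are intact in the knockout line was not tested.

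Both arms of miR-1908 fell. The 5p strand, the main product, went from 136.3 CPM in WT to 73.9 CPM in the knockout, 1.84-fold lower (log2 fold change -0.88 ± 0.24, adjusted p 0.0039 in the authors' deposited table). The 3p strand went from 9.15 to 2.96 CPM, 3.09-fold lower (log2 fold change -1.59 ± 0.51, adjusted p 0.026 in the authors' deposited table). The arms come from 1 hairpin and are not independent of each other.

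For the scarce 3p strand the reads could be placed in libraries by depth. The deepest, middle and shallowest WT libraries held 23, 5 and 9 reads, which is 12.4, 4.55 and 10.5 CPM. The knockout libraries held 20 reads in all, 11 of them in the shallowest library, at 5.26 CPM, and at most 7 in either of the other two, at most 2.81 CPM. The lowest WT library therefore lay below the highest knockout library, and the groups overlapped.

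miR-1296-5p rose from 56.2 CPM in WT to 91.1 CPM in the knockout, 1.62 times the WT level (log2 fold change 0.70 ± 0.23, adjusted p 0.028 in the authors' deposited table). In the guide-treated lines it stood at 72.5 CPM in sgNT and 61.4 CPM in sgCYRANO. The WT level was the lowest and the knockout level the highest of the 4 groups.

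The most abundant strand, miR-1180-3p, rose from 490.03 to 632.2 CPM, 1.29 times the WT level. Its log2 fold change of 0.37 ± 0.13 (95% interval 0.11 to 0.62) was close to the threshold (adjusted p 0.047, authors' deposited table). With the CYRANO guide it stood at 390.6 CPM in sgNT against 479.4 CPM in sgCYRANO, and that change of 0.30 ± 0.19 did not pass (adjusted p 0.98, authors' deposited table). The control lines themselves lay apart, at 390.6 CPM in sgNT and 490.03 CPM in WT.

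The calls depend on the reference against which F is read and on the centre of the fold changes. Read with 4 denominator degrees of freedom, those of the 6 libraries alone, the deposited F left 0 of the 63 strands and 3 of all 868 past the threshold. That F still holds the spread pooled across strands. The reading is therefore stricter than the authors' test, and it does not show what a test without pooling would call. The median log2 fold change of all strands at 10 CPM or more was 0.13, and relative to it 5 strands passed, beside 10.6% of all strands (30 higher and 62 lower). The 5 were miR-1301-3p, higher, and miR-1263, both miR-1908 arms and miR-1278, lower, with miR-1296-5p at 0.57 ± 0.23 and miR-1180-3p at 0.24 ± 0.13 no longer past it.

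**Figure D2:**
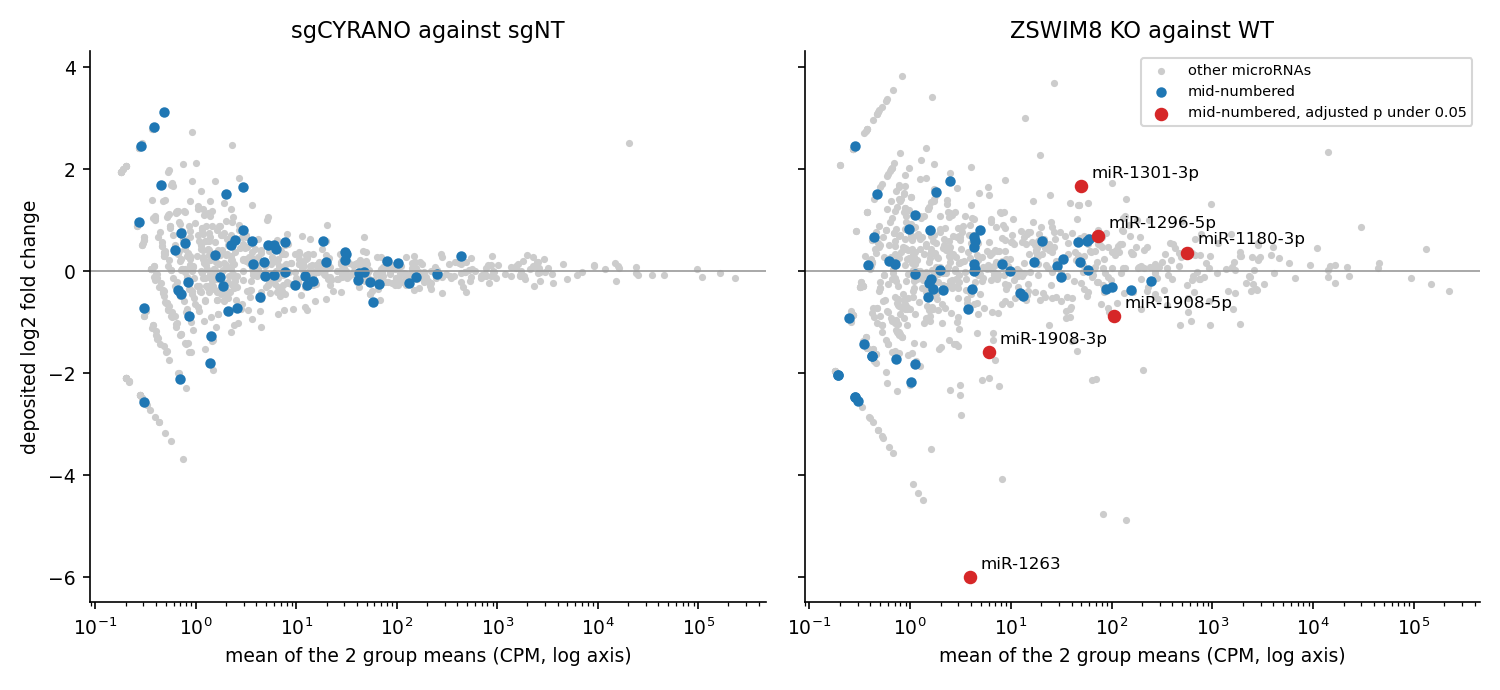
Deposited log2 fold change against the mean of the 2 group means (CPM, log axis) for each strand, with sgCYRANO against sgNT on the left and ZSWIM8 KO against WT on the right; grey points are all other microRNAs, blue points the mid-numbered strands, red points those past an adjusted p of 0.05. No red point lies in the left panel and 6 lie in the right, where miR-1263 is at -6.00 because no read was found in the knockout.

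Further strands had differences of similar size that did not pass. The Alu-related miR-1303 stood at 46.1 CPM in WT and 72.0 CPM in the knockout (log2 fold change 0.64 ± 0.25, adjusted p 0.075, authors' deposited table). miR-1255a stood at 45.6 and 68.5 CPM (0.59 ± 0.25, adjusted p 0.119, authors' deposited table), and miR-1278, encoded in an intron of CDC73, at 175.9 and 135.8 CPM (-0.37 ± 0.18, adjusted p 0.196, authors' deposited table). In all, 11 of the 63 strands had an unadjusted p under 0.05, 17.5%, beside 19.8% of all strands. These 3 and the mirtron strands miR-1226-3p and miR-1237-3p are the 5 of the 11 that did not pass the adjustment.

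The remaining strands at 10 CPM or more differed by less than their errors allow to be told from 0. miR-1273h-3p stood at 258.9 CPM in WT and 227.7 CPM in the knockout, and miR-1260b at 111.8 and 90.4 CPM. miR-1285-3p stood at 57.5 and 58.6 CPM. The 95% interval lay wholly within a 2-fold change in either direction for 4 of the 5 strands at 100 CPM or more and for 7 of the 15 between 10 and 100 CPM. It did so for 2 of the 26 strands between 1 and 10 CPM and for 0 of the 17 under 1 CPM. A 2-fold change of a scarce strand was thus mostly not detectable in this test, whose counting error was that of 1000000 reads per library.

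Mirtrons were followed as a list of 9 hairpin numbers (miR-1224 to miR-1229 and miR-1236 to miR-1238), of which 6 were measured, through 7 strands. Each of the 6 hairpins filled an annotated intron of its host gene from end to end: MIR1224 fills an 85-base intron of VWA5B2, MIR1226 a 75-base intron of DHX30, MIR1227 an 88-base intron of PLEKHJ1, MIR1229 a 69-base intron of MGAT4B, and MIR1236 and MIR1237 introns of 102 bases in NELFE and RPS6KA4. An intron begins with GU and ends with AG, and the strands carry those letters, shown here in capitals.
miR-1224-5p: GUgaggacucgggaggugg
miR-1226-5p: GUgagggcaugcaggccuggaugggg
miR-1226-3p: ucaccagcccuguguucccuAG
miR-1227-3p: cgugccacccuuuuccccAG
miR-1229-3p: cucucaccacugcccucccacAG
miR-1236-3p: ccucuuccccuugucucuccAG
miR-1237-3p: uccuucugcuccgucccccAG
All 5 of the 3p strands ended in AG and both 5p strands began with GU. Among the other mid-numbered strands with an arm in the name, 0 of 14 3p strands ended in AG and 0 of 14 5p strands began with GU. Over all measured strands with a sequence the shares were 23.5% of 387 and 4.36% of 321. These letters describe the RefSeq ends and were not read from the sequenced reads.

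None of the mirtron strands passed the test in either comparison. The counts were 0 of 6 tested for ZSWIM8, beside 9.91% of all 868 strands, and 0 of 5 for CYRANO, beside 0.119% of all 837. With so few strands these counts cannot be told from the shares over all strands. miR-1226-3p, the most abundant, stood at 42.2 and 41.5 CPM in sgNT and sgCYRANO, and at 37.1 and 55.3 CPM in WT and the knockout (log2 fold change 0.58 ± 0.27 without ZSWIM8, adjusted p 0.185, authors' deposited table). miR-1237-3p had 2, 1 and 1 reads in the deepest, middle and shallowest WT libraries, 0.909 to 1.16 CPM. The knockout libraries held 28 reads, 6 of them in the shallowest library at 2.87 CPM, and at least 9 in each of the other two. All 3 knockout libraries thus lay above all 3 WT libraries for miR-1237-3p, yet its log2 fold change of 1.78 ± 0.78 did not pass (adjusted p 0.142, authors' deposited table). miR-1227-3p stood at 3.53 CPM in WT and 6.26 CPM in the knockout, and its neighbour miR-6789-3p, whose hairpin lies 1680 bases away, at 2.74 and 2.41 CPM.

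**Figure D3:**
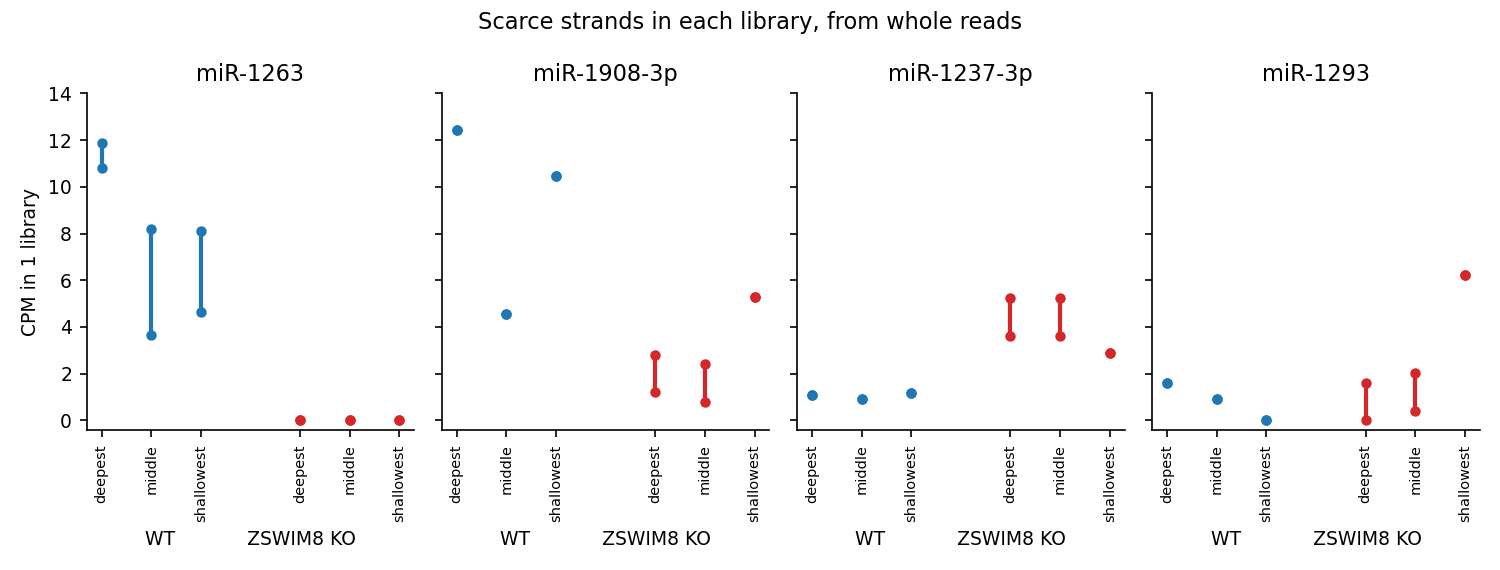
CPM in single libraries of WT (blue) and ZSWIM8 KO (red) for 4 scarce strands, with libraries ordered by depth within each group; where more than 1 set of whole reads gives the group mean, a line joins the lowest and highest value. The 3 knockout libraries are at 0 for miR-1263 and above all WT libraries for miR-1237-3p, and 1 knockout library stands apart for miR-1293 at 6.22 CPM.

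Single libraries carried some of the other scarce strands. miR-1293 had 4 reads in WT and 18 in ZSWIM8 KO, 13 of them in the shallowest knockout library, and its log2 fold change of 1.57 ± 0.88 did not pass (adjusted p 0.323, authors' deposited table). For miR-1269a the WT libraries held 7, 4 and 2 reads by depth, whereas the deepest knockout library held at most 1 of the 33 to 39 knockout reads. The error of miR-1269a in that fit was 2.89 times that of strands of like abundance, the largest such ratio of the 63. Of the 7 strands with a group at 0 in the ZSWIM8 table, miR-1263 had 33 reads in the other group and the remaining 6 had at most 4, and no fold change is given for those.

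Other strands were grouped by where their hairpin or sequence comes from. miR-1248 lies within SNORA81, in EIF4A2, and miR-1291 within SNORA2C, in KANSL2, both box H/ACA small nucleolar RNAs. In ZSWIM8 KO against WT neither passed: miR-1248 stood at 27.8 and 30.1 CPM and miR-1291 at 4.33 and 4.50 CPM. MIR1843 similarly overlaps the small Cajal body RNA SCARNA3, and its strand stood at 16.3 CPM in WT and 24.8 CPM in the knockout (adjusted p 0.342, authors' deposited table). Reads of the strand and of the small nucleolar or Cajal body RNA cannot be told apart where the sequences coincide.

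The 6 Alu-related strands were miR-1273c, both miR-1273h arms, both miR-1285 arms and miR-1303. Their median log2 fold change was -0.12 without ZSWIM8 (0.08 over all strands) and -0.13 with the CYRANO guide (0.01 over all strands). None of the 6 passed, beside 9.91% and 0.119% of all strands. The 2 strands of the tRNA-like list, miR-1260a and miR-1260b, had few and many reads: miR-1260a stood at 1.76 CPM in WT and 0.293 CPM in the knockout, miR-1260b at 111.8 and 90.4 CPM. From the HTR2C cluster on the X chromosome miR-1298-5p was the only strand measured, at 1.98 CPM in WT and 2.005 CPM in the knockout. The sources used here do not say how reads matching several repeats or gene copies were assigned, so these levels are uncertain.

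miR-1306 is cut from an exon of DGCR8, the RNA-binding partner of Drosha, in 5 of its 10 annotated transcripts. The 5p strand stood at 45.2 CPM in WT and 51.3 CPM in the knockout and the 3p strand at 30.3 and 35.9 CPM, with log2 fold changes of 0.18 ± 0.26 and 0.25 ± 0.29 in the authors' deposited table. With the CYRANO guide the 5p strand stood at 47.8 and 47.1 CPM and the 3p strand at 27.9 and 32.5 CPM. The ratio of 5p over 3p was 1.43 to 1.71 in the 4 groups.

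With the CYRANO guide none of the 59 strands tested passed, beside 0.119% of all 837 strands, which is miR-7-5p alone (same test and threshold). At 10 CPM or more 0 of 20 passed, beside 0.334% of all strands in that range. At an unadjusted p under 0.05 there were 3 of 59, or 5.08%, beside 5.85% of all strands. The median log2 fold change of the 59 strands was -0.02, against 0.01 over all strands, with 29 above 0 and 30 below. The 95% interval lay within a 2-fold change for all 5 strands at 100 CPM or more and for 13 of the 15 between 10 and 100 CPM.

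The 3 strands with an unadjusted p under 0.05 were all higher with the guide. The snoRNA-embedded miR-1248 stood at 14.5 CPM in sgNT and 22.1 CPM in sgCYRANO (log2 fold change 0.60 ± 0.28, adjusted p 0.816, authors' deposited table). miR-1257 had 2, 1 and 4 reads in the sgNT libraries by depth, 1.35 CPM on average, and stood at 4.53 CPM in sgCYRANO (1.65 ± 0.71, adjusted p 0.774, authors' deposited table). miR-1302 had no reads in sgNT and 2, 0 and 3 reads in the sgCYRANO libraries by depth, too few for a fold change. None of these passed the adjustment.

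The arms of miR-1908, which both fell without ZSWIM8, lay on opposite sides of 0 with the CYRANO guide, and neither change passed. miR-1908-5p stood at 142.6 CPM in sgNT and 122.6 CPM in sgCYRANO, and miR-1908-3p at 6.20 and 9.26 CPM. The least certain of the abundant strands was miR-1303, at 70.5 CPM in sgNT and 46.2 CPM in sgCYRANO, whose log2 fold change of -0.61 carried an error of 0.64. Its error in that fit was 3.35 times that of strands of like abundance, and that of miR-1180-3p 1.64 times.

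The change differed between the 2 comparisons for 4 of the 54 strands tested in both, beside 6.64% of all 753 (difference of log2 fold changes over its standard error, normal reference, adjusted over all 753). The change was higher without ZSWIM8 than with the CYRANO guide for miR-1301-3p, by 1.32 ± 0.35 on the log2 scale (adjusted p 0.0042), and for miR-1296-5p, by 0.93 ± 0.28 (adjusted p 0.019). It was lower for miR-1263 (adjusted p 2.1e-06) and for miR-1908-3p, by 2.16 ± 0.66 (difference -2.16, adjusted p 0.023). For miR-1908-5p the difference of -0.66 ± 0.27 did not pass (adjusted p 0.15), and for miR-1180-3p it was 0.07 ± 0.23 (adjusted p 0.93). With both comparisons centred on their medians at 10 CPM or more, miR-1296-5p no longer passed (0.78 ± 0.28, adjusted p 0.069) and miR-1908-5p did.

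**Figure D4:**
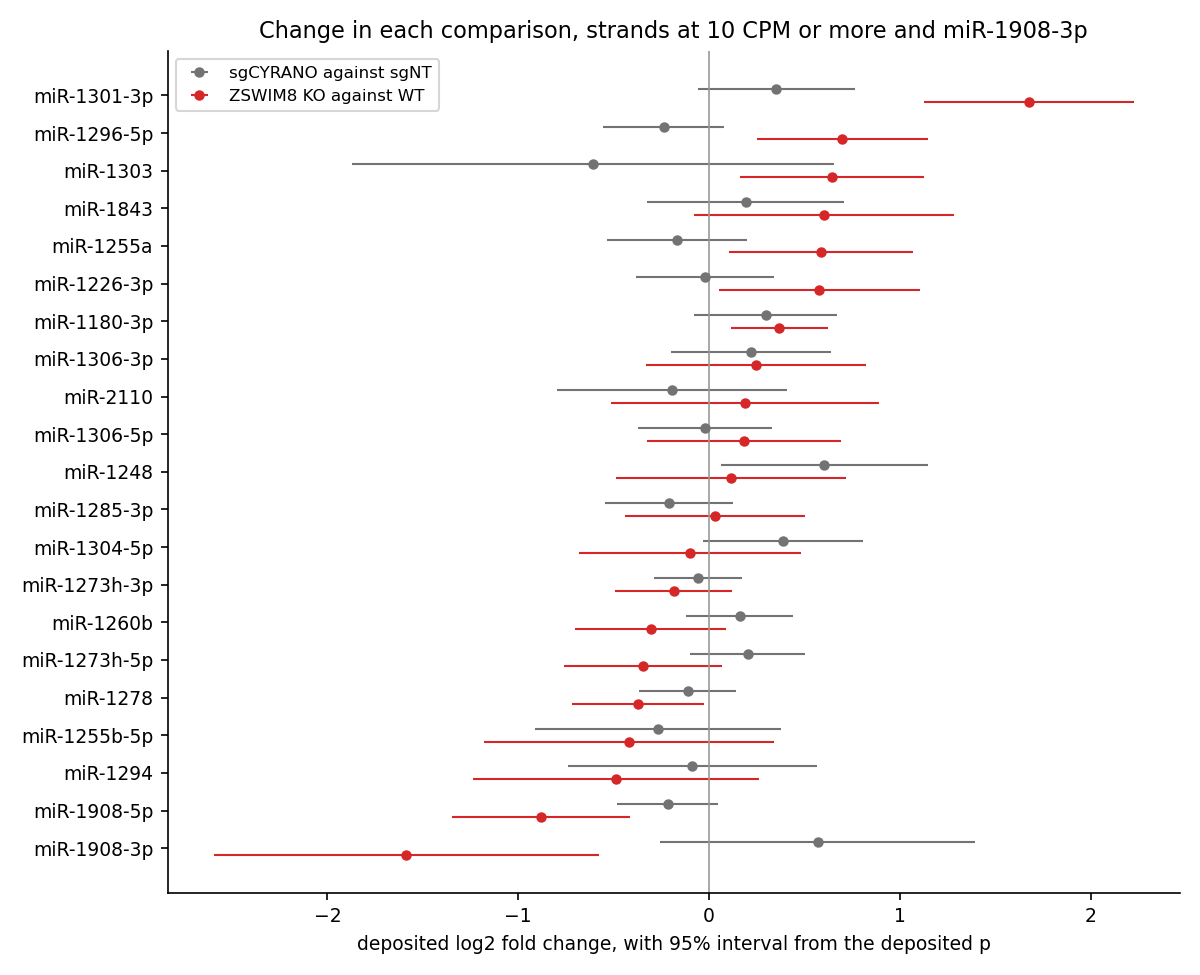
Deposited log2 fold change with the 95% interval implied by the deposited p, for sgCYRANO against sgNT (grey) and ZSWIM8 KO against WT (red), for strands at 10 CPM or more and miR-1908-3p. The intervals of the 2 comparisons do not overlap for miR-1301-3p, miR-1296-5p and miR-1908-3p, and the grey interval of miR-1303 is the widest among the strands at 10 CPM or more.

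No hairpin passed the test for a difference between its arms. There were 6 hairpins with both arms in the ZSWIM8 table, beside 3.72% of all 188 past the test, and 9 in the CYRANO table, beside 0% of all 180. The test took the errors of the arms as independent, and only 2 of these hairpins in each table had both arms at 10 CPM or more. For miR-1908 the 5p strand was 14.9 times the 3p strand in WT and 25.0 times in ZSWIM8 KO, and the arms' log2 fold changes differed by 0.71 ± 0.57 (adjusted p 0.871). With the CYRANO guide the miR-1908 ratio went from 23.0 to 13.2, a difference of -0.79 ± 0.44 (adjusted p 0.966). For miR-1273h, the other hairpin besides miR-1306 with both arms at 10 CPM or more, the 3p strand was 2.65 times the 5p strand in WT and 2.97 times in ZSWIM8 KO.

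In total 7 pairs of measured strands that include a mid-numbered one share a seed. The sequences of 3 pairs, picked after their values were seen, are shown with the seed in capitals.
miR-1255a: aGGAUGAGcaaagaaaguagauu
miR-1255b-5p: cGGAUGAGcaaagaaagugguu
miR-1260a: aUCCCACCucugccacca
miR-1260b: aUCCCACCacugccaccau
miR-1271-5p: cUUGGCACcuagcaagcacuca
miR-96-5p: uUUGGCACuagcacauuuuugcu
The miR-1255 strands have the same base at 19 of 22 positions counted from the 5′ end. In ZSWIM8 KO against WT miR-1255a stood at 45.6 and 68.5 CPM and miR-1255b-5p at 14.1 and 10.5 CPM, on opposite sides of 0 with neither past the threshold. The miR-1260 strands have the same base at 17 of 18 positions, and the a form was at 0.293 to 1.76 CPM where the b form was at 90.4 to 111.8 CPM. miR-1271-5p stood at 1.18 CPM in WT and 0.268 CPM in the knockout, 4 and 2 reads. The strand that shares its seed, miR-96-5p, fell from 643.3 to 309.97 CPM (log2 fold change -1.05 ± 0.14, adjusted p 4.08e-11, authors' deposited table). At 4 and 2 reads no direction can be read for miR-1271-5p. The 4 pairs not shown are miR-1285-3p with miR-3187-5p and with miR-5189-5p, miR-1291 with miR-6775-3p, and miR-1843 with miR-4802-5p. In these the partners stood at 0 to 1.92 CPM and none passed the test.

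The 60 strands with a sequence were 18 to 27 bases long with a median of 22. In both other number ranges the lengths were 18 to 25 bases, also with a median of 22. Their median G and C content was 58.3%, above the 45.8% of strands numbered below 1000 and the 54.5% of those numbered 3000 upward. The longest was miR-1248 with 27 bases. Of the 59 hairpins found for these strands in the annotation, 50 lay in a gene on the same strand, 3 only opposite a gene and 6 in no gene, among them MIR1263. In bulk RNA, fewer cells with a strand and less of it per cell cannot be told apart.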

How the data were processed

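Libraries of 12 K562 samples were made with an NEB Next small-RNA kit from miRNeasy RNA, per the labels. Build hg19 and the tools bcl2fastq, FastQC 0.11.2, STAR, featureCounts and edgeR are listed, with no roles, in the submitters' processing notes. The deposited tables hold the authors' own edgeR comparisons: per the file headers, each strand's change and its mean CPM, both as log2, an F statistic (a score here), and an unadjusted and an adjusted p-value. The design had foreseen counts per library. The tables hold none, so the authors' deposited test is the main result, as the design set for that case.

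Group means were computed with Python 3.11.15 by inverting the deposited log2 values (prior counts 2 and 0.125). All group sums under 10 CPM fell on multiples of 0.001 CPM within 0.0002 (438, 423, 459 and 451 of as many in sgNT, sgCYRANO, WT and ZSWIM8 KO). All sums up to 3 CPM were whole reads of 3 libraries within that rounding (220, 227, 241 and 208), where 0.733% to 2.87% of such multiples are. The authors' test thus ran on CPM, with counting error set as for 1000000 reads in each library. Libraries are ordered by depth and cannot be tied to replicate numbers. If the direction of a table were turned, its groups would change places.

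A standard error is the deposited change divided by the normal quantile of its p. Differences between comparisons and between arms were tested against a normal reference, two-sided, with Benjamini-Hochberg adjustment over all strands or hairpins. On 20 simulations of the ZSWIM8 comparison (868 strands), made with the same priors, group sums were recovered in all 20. Library totals were right in 38 of 40 groups, wrong in 1 and not found in 1. All 38 groups whose sums were all whole reads were right, and the 4 real groups are of that kind. The rule for finding the worth of 1 read was loosened after an early simulation failed, which left the real values as they were. The simulations do not check the authors' fit. The p-values reflect the spread between the triplicates as pooled across strands, with counting error set as for 1000000 reads, and no other spread. Strands named are those past the threshold, the most abundant, those with the largest changes at an unadjusted p under 0.05, other arms, and the list members. The strands described and the lists were chosen with earlier results of these data known. The examples of single libraries and the seed partners were picked after their values were seen.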

Additional observations from a re-analysis of the deposited data

How the results depend on the processing

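In ZSWIM8 KO against WT, 6 mid-numbered strands passed the threshold. The count was 0 when the deposited F was read with 4 denominator degrees of freedom (3 of all 868 strands) and 2 with Holm adjustment (miR-1301-3p and miR-1263), beside 4.61% of all strands. It was 5 after centring on the median at 10 CPM or more (beside 10.6% of all), 5 of 20 among strands at 10 CPM or more (4 of them among the 6, with miR-1303 added, while miR-1263 and miR-1908-3p were not tested; beside 33.6%), 6 of 46 at 1 CPM or more (beside 16.4%) and 7 at an adjusted p under 0.10 (beside 13.7%). All 102 strands called at 10 CPM or more split into 62 higher and 40 lower, against 41 and 45 among all 86, and after centring into 30 and 62. In sgCYRANO against sgNT the count was 0 under all 6 alternatives, with 1 strand (miR-7-5p) called among all. The count of strands whose change differed between the comparisons was 4 under both alternatives. With standard errors from the deposited F this was beside 56 of all 753 strands, and after centring beside 52. Centring kept 3 of the 4, with miR-1296-5p lost and miR-1908-5p added. The count of hairpins past the arm test was 0. Only centring altered the fold changes, and none of the called changes turned its direction there. The other alternatives kept the deposited fold changes, so no direction could turn in them. No paired analysis was possible because the tables hold 1 value per comparison and no column of a single library. For the same reason leaving out a replicate, other scalings and other tools were not run. At 1 to 10 CPM the median standard error was 0.64 (CYRANO table) and 0.78 (ZSWIM8 table), which limits what can be seen of most mid-numbered strands.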
